A study of Arabidopsis thaliana with 8 samples.

Results

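The genes described here are the protein-coding genes of the Arabidopsis thaliana plastid chromosome that an ATH1 array measured in leaves from a wounding experiment. A gene was taken where a probe set (a group of short probes for 1 transcript, read out as 1 value) was annotated to exactly 1 gene, that gene lay on the plastid chromosome, and its symbol began with psa, psb, pet, atp, ndh, rpl, rps, rpo, rbc, ycf, clp, acc, cem, ccs or mat. This gave 69 genes, each with 1 probe set, of 22746 probe sets tested. A further 8 probe sets, for the 7 genes rps12, rpl2, rpl23, ycf2, ndhB, rps7 and ycf1, were annotated to more than 1 gene copy on that chromosome and were left out by the rule. The 69 genes hold 15 photosystem II, 5 photosystem I, 6 cytochrome b6f, 6 ATP synthase and 10 NDH genes, rbcL, 7 large and 8 small ribosomal subunit genes, 4 RNA polymerase genes and 7 others.

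Chloroplasts keep a small genome of their own that codes for core subunits of the photosynthetic complexes, the large subunit of Rubisco, and part of the machinery that transcribes and translates these genes. The remaining subunits are nuclear genes, so most complexes are built from both genomes. Many plastid genes are transcribed together in units of several genes, by a plastid-encoded RNA polymerase and by a nucleus-encoded one, and the transcripts are then cut, spliced and edited. In plastids a poly(A) tail marks an RNA for decay, and most plastid mRNAs carry no stable tail. The labelling protocol in the labels does not name the primer, so how evenly plastid RNA was labelled is not given in the sources used here.

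The series holds 8 arrays in 4 groups of 2: systemic leaves of dTLec1-1, control leaves of dTLec1-1, systemic leaves of wild type, and control leaves of wild type. dTLec1-1 is 1 SALK insertion line, the wild type is Col-0, and the gene that the insertion hits is not named in the labels, so its transcript was not checked. Seeds were kept dark for 2 days at 4 °C, and the plants, aged 5 weeks, had daily light for 10 h, then 14 h without it, at 21 °C. In both genotypes some rosette leaves were wounded by squeezing the midvein with tweezers, 2 h before the RNA was extracted. The labels do not say whether control leaves came from unwounded plants or whether the 2 arrays of a group came from separate plants. The p-values below therefore reflect the spread of these 8 samples alone, and that spread may be technical. A mean difference between replicate numbers was removed before deposit, which lowers that spread. The main test does not allow for this, so its p-values tend to be too small.

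The values are the authors' log2 expression values, and every difference below is a difference of log2 values, with the first-named group minus the second. The 69 genes lay between 5.18 and 13.81 over the 8 arrays, and 67 of them were above the array's median (5.82 to 5.86) on all 8 arrays. Of the leaf mesophyll genes, RCA (Rubisco activase) read 13.57 to 13.73 and LHCB4.2 (a light-harvesting protein) 13.57 to 13.88. Of 28 listed cell type markers, 4 were matched by symbol to a probe set of their own, none of them for epidermis, guard cells or xylem. A marker listed under another name would be missed, so this does not show that the array lacks the others. SWEET11 (phloem) read 10.94 to 11.33 and TRY (trichome) 5.20 to 5.79, and none of the 4 passed the test in any comparison. A whole leaf was measured, so fewer cells of a type, fewer plastids per cell and less RNA per plastid cannot be told apart.

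The plastid genes moved together from array to array, and the 2 arrays of each group differed in it. The first dTLec1-1 control array stood highest, with 69 of 69 genes above their own mean over the 8 arrays and a median deviation of 0.33. The median deviation was -0.01 and -0.24 on the dTLec1-1 systemic arrays and 0.33 and -0.12 on the dTLec1-1 control arrays. In wild type it was -0.12 and 0.09 on the systemic arrays and -0.15 and 0.18 on the control arrays. In each of the 4 groups, then, 1 array lay above the other for most plastid genes, and the groups overlapped. Over all 22746 probe sets the median deviation stayed between -0.04 and 0.02 on every array.

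**Figure D1:**
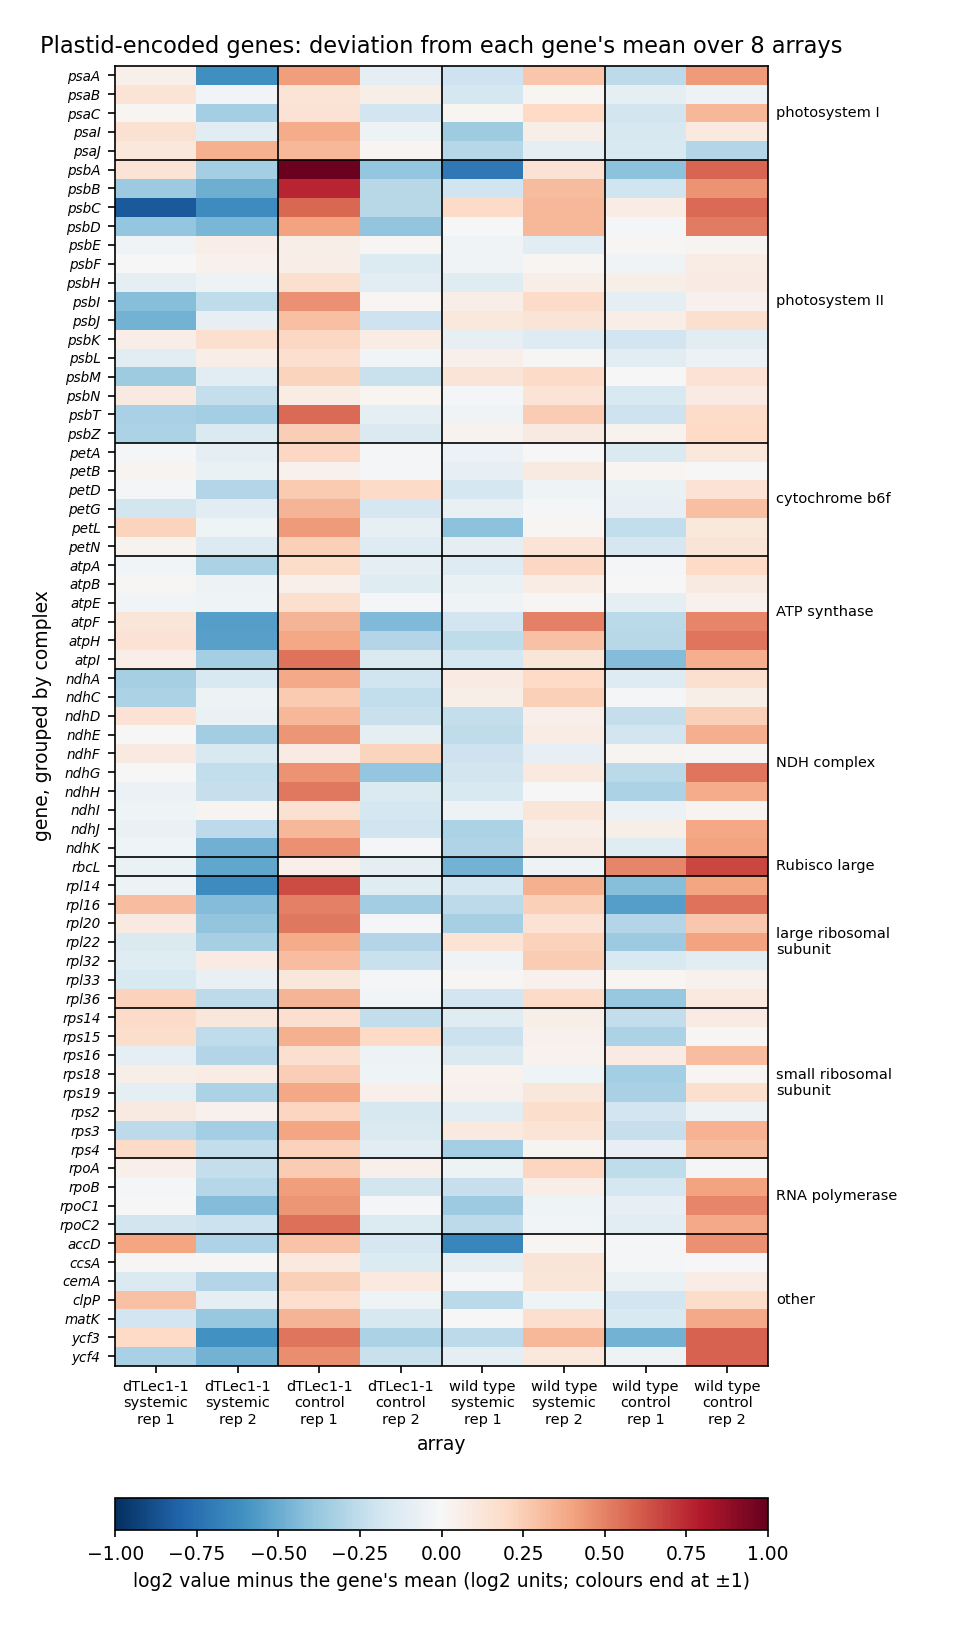
Each row is 1 of the 69 plastid genes, grouped by complex, each column 1 array, and the colour is the log2 value minus the gene's mean over the 8 arrays. The first dTLec1-1 control array is above the mean for 69 of 69 genes, while rbcL is highest on both wild-type control arrays.

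Between the replicates of a group, the second array minus the first gave a median over the 69 genes of -0.17 in dTLec1-1 systemic leaves, where 51 genes were lower and 18 higher on the second array. In dTLec1-1 control leaves it was -0.44, with 68 genes lower and only ndhF higher. In wild type it was 0.20 in systemic leaves, with 65 genes higher, and 0.33 in control leaves, with 66 genes higher. Over all probe sets, 46.4% to 52.9% were higher on the second array. The largest single difference was that of psbA, which codes for the D1 protein of the photosystem II reaction centre. Its values were 11.37 and 10.90 in dTLec1-1 systemic leaves, 12.22 and 10.85 in dTLec1-1 control leaves, 10.52 and 11.38 in wild-type systemic leaves, and 10.83 and 11.82 in wild-type control leaves. No pair of groups was separated for psbA, whose range over the 8 arrays, 1.69, was the widest of the 69 genes. The median range was 0.67 for the plastid genes and 0.40 over all probe sets.

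The 24 probe sets for Bacillus transcripts, used on this array as poly(A) controls added to the sample RNA, differed between replicates with the same signs as the plastid genes. Their median difference, second array minus first, was -0.16 in dTLec1-1 systemic, -0.12 in dTLec1-1 control, 0.11 in wild-type systemic and 0.31 in wild-type control leaves. The 18 hybridisation controls differed by at most -0.04, in wild-type control leaves. A set of 16 genes with mitochondrion-type symbols, chosen after the data had been seen, differed by 0.08 in dTLec1-1 systemic, 0.12 in dTLec1-1 control, 0.02 in wild-type systemic and -0.10 in wild-type control leaves. On the first dTLec1-1 control array the median deviation of the poly(A) controls was -0.01, against 0.33 for the plastid genes. On the first wild-type control array it was 0.13, against -0.15. On every other array the deviations of the poly(A) controls and the plastid genes had the same sign. The part of RNA input or labelling in the plastid genes' shift was not tested. In the deposited values the mean over the 4 first replicates equals that over the 4 second replicates for every probe set, with a largest difference of 7.5e-05. The 4 replicate differences of a gene therefore sum to 0, and opposite signs in some groups follow from this.

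**Figure D2:**
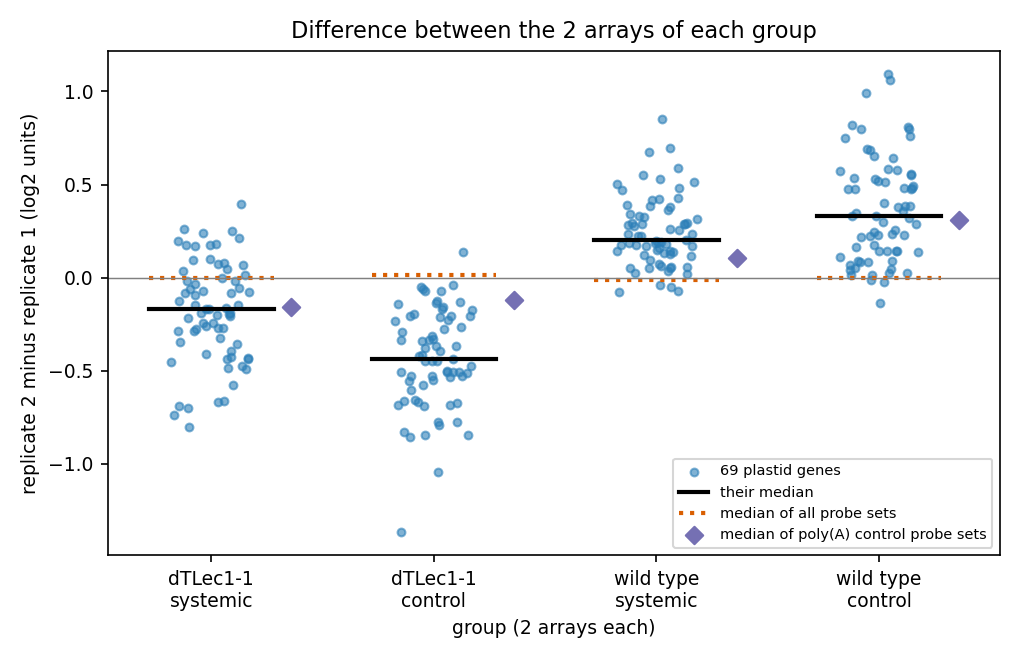
Points are the 69 plastid genes in each of the 4 groups, the vertical axis is replicate 2 minus replicate 1 in log2 units, black bars are their medians, dotted orange bars the medians of all 22746 probe sets, and diamonds the medians of 24 poly(A) control probe sets. The plastid medians lie at -0.17 and -0.44 in dTLec1-1 and at 0.20 and 0.33 in wild type, with the poly(A) controls on the same side of 0 in each group.

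How closely single genes followed this shared movement differed. Across the 8 arrays, Pearson's r of a gene with the median of the other 68 had a median of 0.80, and 34 genes were above 0.8. This is a description of arrays that share their normalization. Genes of different complexes followed it closely, such as rpl14 (r = 0.97), atpI (0.96), rpoB (0.96) and psbA (0.93). The 4 genes below 0.3 were psbE (-0.03), psaJ (0.03), psbK (0.12) and ndhF (0.26). psbE, a subunit of cytochrome b559, also had the narrowest range over the 8 arrays, 0.17, with values between 11.08 and 11.25.

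Between systemic and control leaves of wild type, rbcL fell, and no other plastid gene passed the test. With limma and Benjamini-Hochberg adjustment over all 22746 probe sets at an adjusted p of 0.05, 1 of 69 genes was called, against 11.9% of all probe sets, and 1 of 69 had an unadjusted p under 0.05, against 25.1%. In dTLec1-1, 0 of 69 were called between systemic and control leaves, against 0.668% of all probe sets, and 6 had an unadjusted p under 0.05, against 16.5%. Between the genotypes 0 of 69 were called by limma in systemic leaves (background 5.53%), with 6 at an unadjusted p under 0.05 (background 23.2%). In control leaves limma called 0 of 69, and 0.0% of all probe sets; 4 of 69 had an unadjusted p under 0.05 (background 9.25%). The plastid genes' share of calls was thus below that of the whole array in wild type and in the systemic comparison of genotypes, and no higher elsewhere.

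Most plastid genes had a lower mean in systemic than in control leaves of dTLec1-1, a difference that limma called for no single gene. There 61 of 69 differences were negative, with a median of -0.23, against a median of -0.01 over all probe sets. In wild type 40 of 69 were negative and the median was -0.02, the same as over all probe sets; it ranged from -0.22 to 0.13 as arrays were left out. The difference of the 2 responses, dTLec1-1 minus wild type, had a median of -0.17 and was negative for 54 of 69 genes; limma called 0 (background 0.0044%), with 2 at an unadjusted p under 0.05 (background 11.2%). The median of the dTLec1-1 response rests on the high first control array. It was -0.0015 without that array and -0.42 without the second dTLec1-1 control array; the median difference of the responses ranged from -0.38 to -0.0008 as arrays were left out. Pairing arrays by replicate number, which the labels do not call a pairing, gave medians of -0.27 and -0.08 in dTLec1-1. There 41 of 69 genes were lower in both pairs (background 32.0%) and only rps14 was higher in both (background 27.0%).

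Averaged over genotypes, systemic minus control leaves gave 59 of 69 negative differences with a median of -0.13, and rbcL was the only gene called, a call lost with the replicate number as a block (adjusted p 0.0549), against 14.1% of all probe sets, with 7 at an unadjusted p under 0.05 (background 28.2%). Averaged over leaf types, dTLec1-1 minus wild type had a median of -0.01, with 31 positive and 38 negative differences and 0 genes called by limma (background 3.89%), with 4 at an unadjusted p under 0.05 (background 22.3%). Between the genotypes, 46 of 69 differences were positive in control leaves (median 0.06) and 52 of 69 negative in systemic leaves (median -0.07). The first of these medians was -0.17 without the first dTLec1-1 control array. The second ranged from -0.22 to 0.04 as arrays were left out.

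Genes whose 2 arrays in one group did not overlap with the 2 in the other were near or below the share over the whole array. For dTLec1-1 systemic against control leaves, 16 of 69 genes were lower without overlap, against 25.4% of all probe sets, and 0 were higher, against 21.7%. For wild-type systemic against control leaves, 4 were lower (psbE, ndhF, rbcL and rps16, background 29.5%) and 4 higher (rpl32, ndhC, psbL and psbI, background 22.4%). For dTLec1-1 against wild type in control leaves, 9 were higher (background 20.7%) and only rbcL was lower (background 17.3%). For the same genotypes in systemic leaves, 18 were lower (background 24.0%) and 4, psaJ, rps18, rps14 and psbK, were higher (background 30.8%).

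**Figure D3:**
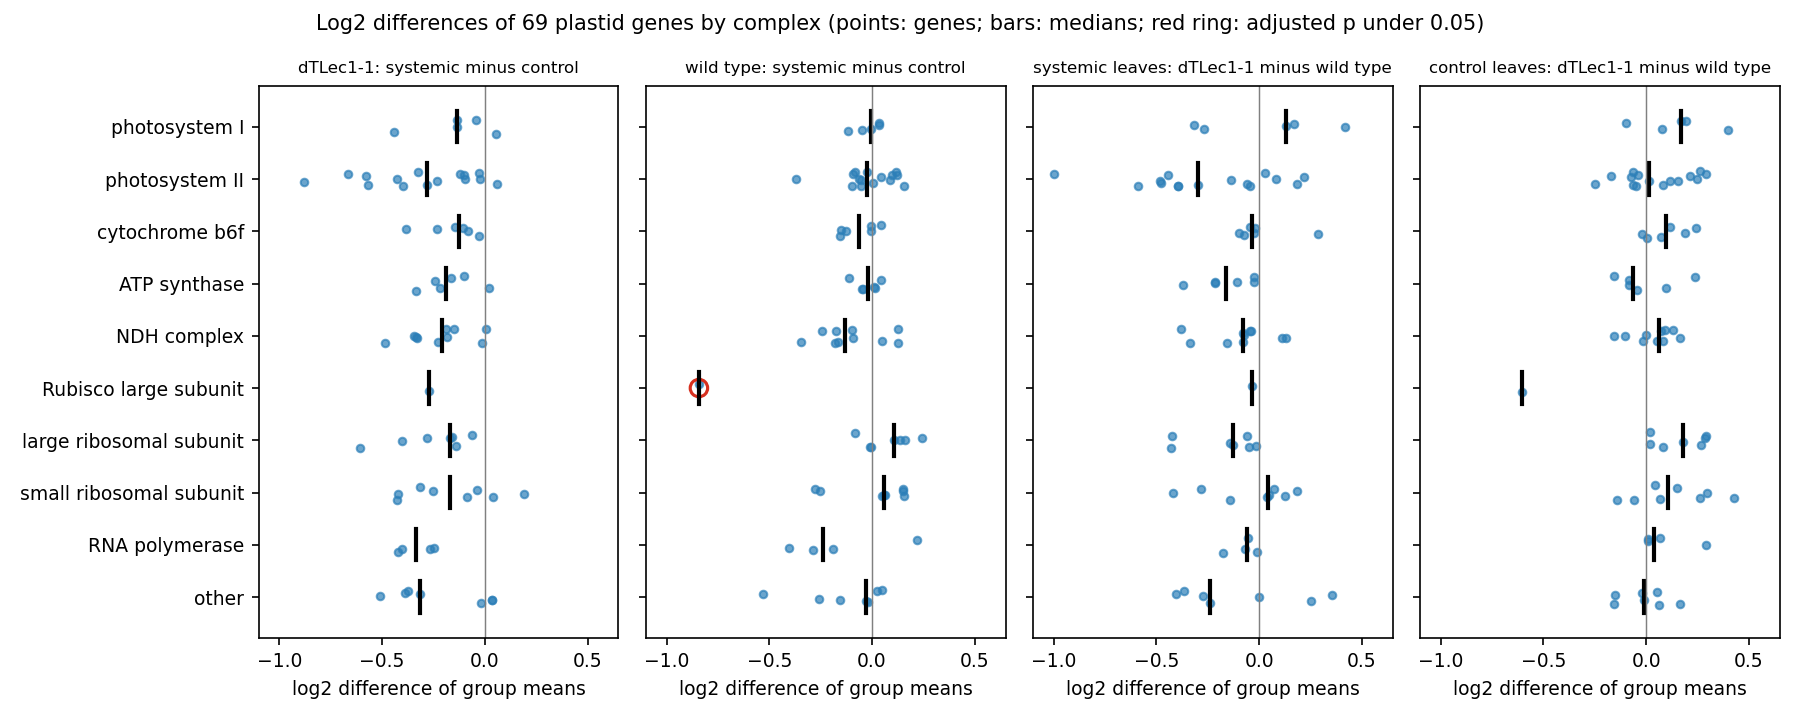
Points are plastid genes by complex, the horizontal axis is the log2 difference of group means in the 4 named comparisons, black bars are medians, and the red ring marks the gene with an adjusted p under 0.05. Only rbcL is ringed, in wild type at -0.84, and photosystem II spreads widest, down to -0.997 for psbC in the comparison of genotypes in systemic leaves.

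The plastid gene of Rubisco, the enzyme that fixes carbon dioxide, was set apart by wild-type control leaves. rbcL read 8.46 and 8.01 in dTLec1-1 systemic leaves, 8.58 and 8.44 in dTLec1-1 control leaves, 8.06 and 8.48 in wild-type systemic leaves, and 9.02 and 9.20 in wild-type control leaves. Both wild-type control arrays were above the other 6. In wild type rbcL was 1.79-fold lower in systemic than in control leaves. The log2 difference was -0.84 ± 0.19 (SE), with an adjusted p of 0.0292 by limma, or 0.0491 with the replicate number as a block. Without the first wild-type systemic array it was -0.63 with an adjusted p of 0.138, and without the second wild-type control array it was -0.75 with an adjusted p of 0.0943, so the call needed both arrays. In dTLec1-1 the difference was -0.27 and the groups overlapped, and the difference of the responses, 0.57 ± 0.26 (SE), had an adjusted p of 0.480. In control leaves dTLec1-1 minus wild type was -0.60 ± 0.19 (SE) with an adjusted p of 0.423. Averaged over genotypes, systemic minus control was -0.56 ± 0.13 (SE) with an adjusted p of 0.0329. With the replicate number as a block the adjusted p was 0.0549, and the call was lost. Without the block it was 0.0644 to 0.0911 without the first dTLec1-1 control, the second dTLec1-1 control, the second dTLec1-1 systemic, the first wild-type systemic or the second wild-type control array.

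Relative to the other plastid genes, rbcL was also highest on the wild-type control arrays. Set against the median of the 69 genes on the same array, rbcL was at -1.37 and -1.57 in wild-type control leaves. On the other 6 arrays it lay between -2.39 and -2.03. This order was not particular to rbcL, though the gap was smaller in ndhJ and ycf4. On this measure ndhJ was at -0.12 and -0.17 in wild-type control leaves, against -0.47 to -0.20 on the other 6. For ycf4 the values were -0.54 and -0.27, against -1.02 to -0.55. The poly(A) controls also stood highest on the wild-type control arrays, with median deviations of 0.13 and 0.44, against -0.24 to 0.01 on the other 6; their part in the rbcL difference was not tested. The median deviation of the 26 genes listed as nuclear partners was -0.0010 and 0.12 on these 2 arrays and -0.06 to 0.08 on the other 6.

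**Figure D4:**
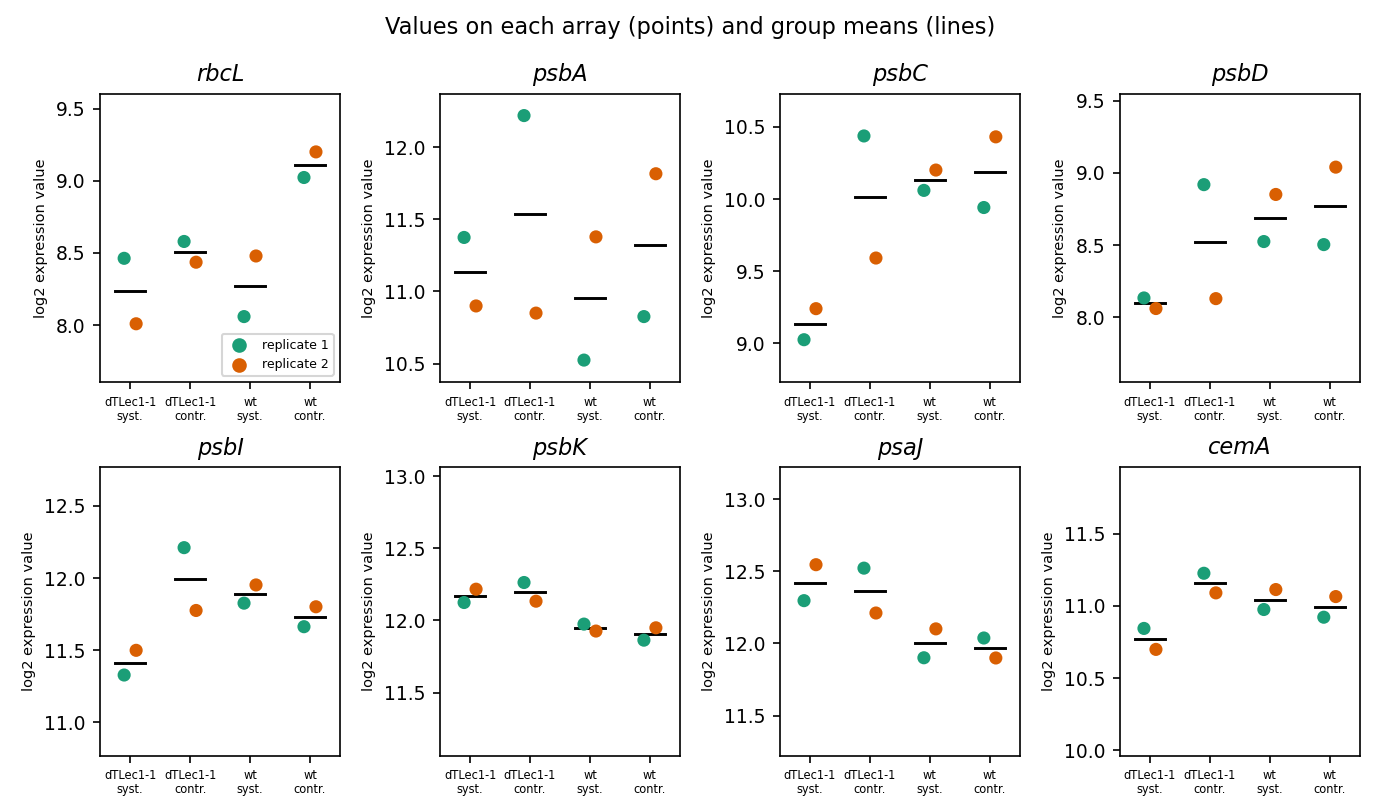
Points are the log2 values of 8 plastid genes on each of the 2 arrays per group (green replicate 1, orange replicate 2) and lines are group means; every panel spans the same number of log2 units. Both wild-type control arrays are above the other 6 for rbcL, and both dTLec1-1 systemic arrays are below the other 6 for psbC, psbI and cemA.

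In photosystem II, which splits water, none of the 15 genes was called. psbB, psbC and psbD had their lowest group mean in dTLec1-1 systemic leaves. So had psbH, psbI, psbJ, psbM, psbN, psbT and psbZ, and genes of other complexes such as atpA, ndhA, rpoC1 and matK. The 15 genes are psbA, psbB, psbC, psbD, psbE, psbF, psbH, psbI, psbJ, psbK, psbL, psbM, psbN, psbT and psbZ. psbC codes for the antenna protein CP43. It read 9.03 and 9.24 in dTLec1-1 systemic leaves, 10.44 and 9.59 in dTLec1-1 control leaves, 10.06 and 10.20 in wild-type systemic leaves, and 9.94 and 10.43 in wild-type control leaves. Both dTLec1-1 systemic arrays were below the other 6, and the other 3 groups overlapped. Between genotypes in systemic leaves the difference was -0.997 ± 0.28 (SE), the widest of the 69 genes, with an adjusted p of 0.0875 by limma. Without either dTLec1-1 control array, which changes only the estimate of the spread, that adjusted p was 0.0422. Between systemic and control leaves of dTLec1-1 it was -0.88 ± 0.28 (SE) with an adjusted p of 0.187, and in wild type it was -0.06.

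psbD, the gene of the D2 reaction centre protein, lies beside psbC in the same unit. It read 8.13 and 8.06 in dTLec1-1 systemic leaves and 8.92 and 8.13 in dTLec1-1 control leaves. In wild type it read 8.52 and 8.85 in systemic leaves and 8.50 and 9.04 in control leaves. Its difference between genotypes in systemic leaves was -0.59, without overlap, and that of psbZ, a small subunit, was -0.30, also without overlap. psbB, which codes for the other inner antenna protein CP47, differed by -0.67 between systemic and control leaves of dTLec1-1 and by -0.07 in wild type. Its arrays did not overlap in dTLec1-1, with 8.24 and 8.11 in systemic leaves and 9.36 and 8.32 in control leaves. For psbT, a small subunit, the same differences were -0.57 in dTLec1-1, with an adjusted p of 0.272, and 0.12 in wild type.

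Small photosystem II subunits differed from one another in direction. psbI read 11.33 and 11.50 in dTLec1-1 systemic leaves, 12.21 and 11.78 in dTLec1-1 control leaves, 11.83 and 11.95 in wild-type systemic leaves, and 11.66 and 11.80 in wild-type control leaves. Systemic arrays were below control arrays in dTLec1-1 and above them in wild type, without overlap in either. The response was -0.58 ± 0.15 (SE) in dTLec1-1, with an adjusted p of 0.132, and 0.16 in wild type; the difference of the responses was -0.74 ± 0.21 (SE) with an adjusted p of 0.289. psbK, its neighbour, read 12.12 and 12.22 in dTLec1-1 systemic leaves, 12.26 and 12.13 in dTLec1-1 control leaves, 11.97 and 11.93 in wild-type systemic leaves, and 11.86 and 11.95 in wild-type control leaves. All 4 dTLec1-1 arrays were above all 4 wild-type arrays. Averaged over leaf types psbK differed by 0.26 ± 0.06 (SE) between genotypes, the highest in the complex, with an adjusted p of 0.0592, and psbC by -0.58 ± 0.19 (SE), the lowest, with an adjusted p of 0.139.

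In the mean of both genotypes, systemic minus control ranged from -0.47 for psbC to 0.02 for psbF, the partner of psbE in cytochrome b559. psbM, whose probe set had the highest mean of the complex, was lower without overlap in dTLec1-1 than in wild-type systemic leaves, by -0.39. Its values there were 12.05 and 12.29 in dTLec1-1 and 12.53 and 12.59 in wild type. psbJ differed by -0.40 in the same comparison, also without overlap. psbH stayed within a range of 0.29 over the 8 arrays.

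In photosystem I, which reduces ferredoxin, the 5 genes psaA, psaB, psaC, psaI and psaJ split by gene, and none was called. psaJ, a small subunit, read 12.30 and 12.55 in dTLec1-1 systemic leaves, 12.52 and 12.21 in dTLec1-1 control leaves, 11.90 and 12.10 in wild-type systemic leaves, and 12.04 and 11.90 in wild-type control leaves. All 4 dTLec1-1 arrays were above all 4 wild-type arrays. The difference between genotypes was 0.41 ± 0.10 (SE) over both leaf types, the highest of the 69 genes, with an adjusted p of 0.0703 by limma. It was 0.42 in systemic leaves, with an adjusted p of 0.131, and 0.40 in control leaves, with an adjusted p of 0.459. psaB, 1 of the 2 reaction centre proteins and the gene with the highest mean in this complex, differed by 0.15 and psaC, an iron-sulphur protein, by -0.18, the lowest. Between systemic and control leaves over both genotypes, psaA, the other reaction centre gene, was lowest at -0.25 and psaJ highest at 0.04.

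Of the signs of RNA quality, the actin control differed between the genotypes in both leaf types, the GAPDH control without overlap in control leaves only, and the ubiquitin control in neither. The GAPDH control probe sets, 3 prime minus 5 prime, read 0.87 and 1.13 in dTLec1-1 systemic leaves, 1.06 and 0.95 in dTLec1-1 control leaves, 0.86 and 0.89 in wild-type systemic leaves, and 0.80 and 0.62 in wild-type control leaves. The actin control probe sets read 1.10 and 1.06 in dTLec1-1 systemic leaves against 0.75 and 0.81 in wild-type systemic leaves. In dTLec1-1 control leaves they read 0.96 and 0.94, against 0.90 and 0.92 in wild-type control leaves. For ubiquitin the probe sets read 0.33 and 0.34 in dTLec1-1 systemic leaves against 0.36 and 0.27 in wild-type systemic leaves, and 0.44 and 0.64 in dTLec1-1 control leaves against 0.55 and 0.44 in wild-type control leaves. Their part in the differences of psbK, psaJ and psbC was not tested.

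The cytochrome b6f genes, whose complex links the 2 photosystems, are petA, petB, petD, petG, petL and petN, and none was called. petD codes for subunit IV. It read 6.31 and 6.04 in dTLec1-1 systemic leaves, 6.59 and 6.52 in dTLec1-1 control leaves, 6.15 and 6.28 in wild-type systemic leaves, and 6.26 and 6.48 in wild-type control leaves. Systemic arrays were below control arrays in dTLec1-1, while in wild type they overlapped. Its difference was -0.38 ± 0.12 (SE) in dTLec1-1, with an adjusted p of 0.187, and -0.27 ± 0.09 (SE) over both genotypes, the lowest of the complex, with an adjusted p of 0.0845. petB, for cytochrome b6, had the highest mean and stayed within a range of 0.18; its systemic minus control difference over both genotypes, -0.02, was the highest of the complex. Between genotypes over both leaf types, petL, a small subunit, was highest at 0.26 and petG lowest at -0.06.

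The ATP synthase genes are atpA, atpB and atpE, for subunits of the catalytic head, and atpF, atpH and atpI, for subunits in the membrane, and none was called. atpB had the highest mean of the complex, with values between 13.60 and 13.81. Its mean difference of systemic minus control was the highest of the complex at -0.01, and that of atpH was the lowest at -0.18. Between genotypes over both leaf types, atpI was highest at 0.06 and atpF lowest at -0.26. The head subunits varied less between arrays than the membrane subunits, with ranges of 0.21 for atpB, 0.26 for atpE and 0.53 for atpA, against 0.98 for atpI, 1.05 for atpF and 1.08 for atpH. Probe sets near the top of an array's scale can be compressed, so these ranges do not compare the transcripts.

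The NDH complex carries cyclic electron flow around photosystem I, and its 10 measured genes are ndhA, ndhC, ndhD, ndhE, ndhF, ndhG, ndhH, ndhI, ndhJ and ndhK. None was called. Systemic minus control over both genotypes ranged from -0.37 for ndhK to 0.03 for ndhI, the gene with the highest mean. ndhK read 9.31 and 8.87 in dTLec1-1 systemic leaves, 9.81 and 9.34 in dTLec1-1 control leaves, 9.05 and 9.44 in wild-type systemic leaves, and 9.23 and 9.75 in wild-type control leaves. Systemic arrays were below control arrays in dTLec1-1, narrowly, and overlapped them in wild type. ndhF differed by -0.18 ± 0.07 (SE) over both genotypes, with an adjusted p of 0.168. In wild type it was lower without overlap, at 6.15 and 6.27 in systemic leaves against 6.38 and 6.37 in control leaves, and between genotypes over both leaf types it was the highest of the complex at 0.12, with ndhC lowest at -0.18.

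Of the ribosomal protein genes, 7 code for the large subunit (rpl14, rpl16, rpl20, rpl22, rpl32, rpl33 and rpl36) and 8 for the small subunit (rps2, rps3, rps4, rps14, rps15, rps16, rps18 and rps19). None was called. In the dTLec1-1 response 7 of 7 large subunit genes were negative, from -0.61 for rpl14 to -0.06 for rpl32, and 7 of 7 were positive between genotypes in control leaves. Both rest in part on the high first dTLec1-1 control array. There rpl14 read 8.40, against 7.69 and 7.11 in dTLec1-1 systemic leaves and 7.62 on the second dTLec1-1 control array. rpl33 was lower without overlap in dTLec1-1, at 10.93 and 11.01 in systemic leaves against 11.20 and 11.07 in control leaves. In wild type rpl14 read 7.56 and 8.10 in systemic leaves and 7.31 and 8.13 in control leaves, so its groups overlapped there. Over both genotypes the systemic minus control difference of the large subunit genes was lowest for rpl14 (-0.25) and highest for rpl32 (0.09), and the genotype difference over both leaf types was lowest for rpl22 (-0.20) and highest for rpl36 (0.14). rpl33 had the highest mean and a range of 0.27.

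Among the small subunit genes, rps16 was lowest between systemic and control leaves over both genotypes, at -0.25 ± 0.09 (SE) with an adjusted p of 0.117, and rps14 highest at 0.12. rps16 read 6.41 and 6.21 in dTLec1-1 systemic leaves, 6.67 and 6.46 in dTLec1-1 control leaves, 6.36 and 6.54 in wild-type systemic leaves, and 6.59 and 6.82 in wild-type control leaves. Systemic arrays were below control arrays in both genotypes, by -0.25 in each. Between genotypes over both leaf types rps15 was highest at 0.24 and rps3 lowest at -0.18. rps19 differed by -0.42 in the dTLec1-1 response and by 0.16 in wild type, a difference of responses of -0.58 ± 0.25 (SE) with an adjusted p of 0.461. rps4, the gene with the highest mean, differed by -0.09 in dTLec1-1 and by -0.28 in wild type.

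The plastid-encoded RNA polymerase is built from the products of rpoA, rpoB, rpoC1 and rpoC2, and none of the 4 was called. rpoB, rpoC1 and rpoC2, which form 1 transcription unit, were negative between systemic and control leaves in both genotypes, at -0.27, -0.43 and -0.41 in dTLec1-1 and -0.19, -0.41 and -0.29 in wild type. rpoC1, with the highest mean, read 10.57 and 10.13 in dTLec1-1 systemic leaves, 11.00 and 10.55 in dTLec1-1 control leaves, 10.20 and 10.52 in wild-type systemic leaves, and 10.48 and 11.05 in wild-type control leaves. Its groups overlapped in both genotypes. Over both genotypes its difference of -0.42 ± 0.18 (SE), the lowest of the 4, had an adjusted p of 0.176. rpoA, which lies at the end of a ribosomal protein unit, was the highest at -0.01. Between genotypes over both leaf types the 4 lay from -0.03 for rpoB to 0.06 for rpoA, and in the difference of responses rpoA was at -0.47 ± 0.21 (SE) with an adjusted p of 0.463.

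The 7 other genes are accD, ccsA, cemA, clpP, matK, ycf3 and ycf4, and none was called. cemA, for a protein of the chloroplast envelope, read 10.84 and 10.70 in dTLec1-1 systemic leaves, 11.23 and 11.09 in dTLec1-1 control leaves, 10.98 and 11.11 in wild-type systemic leaves, and 10.92 and 11.07 in wild-type control leaves. Both dTLec1-1 systemic arrays were below the other 6. Its response was -0.39 ± 0.10 (SE) in dTLec1-1, with an adjusted p of 0.131, and 0.05 in wild type; the difference of responses was -0.44 ± 0.14 (SE) with an adjusted p of 0.326. accD, for a subunit of the acetyl-CoA carboxylase of fatty acid synthesis, differed by -0.02 in dTLec1-1 and by -0.53 ± 0.32 (SE) in wild type, with an adjusted p of 0.371. Its wild-type values were 8.50 and 9.17 in systemic leaves and 9.13 and 9.61 in control leaves, which overlapped.

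ycf4, which takes part in photosystem I assembly, had the lowest mean difference between systemic and control leaves of these 7 genes (-0.39) and the lowest between genotypes (-0.28). It read 9.59 and 9.44 in dTLec1-1 systemic leaves, 10.37 and 9.68 in dTLec1-1 control leaves, 9.82 and 10.02 in wild-type systemic leaves, and 9.86 and 10.50 in wild-type control leaves. The dTLec1-1 systemic arrays were below the other 6. ccsA, a gene of cytochrome c maturation with the highest mean of the 7, was highest between systemic and control leaves at 0.03, and clpP, for a subunit of the Clp protease, was highest between genotypes at 0.16.

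Genes of 1 transcription unit did not always have similar differences. In the psbD, psbC and psbZ unit 3 of 3 were negative between genotypes in systemic leaves, between -0.997 and -0.30, and in control leaves between -0.25 and -0.06. In the psbB unit, psbB and psbT differed by -0.67 and -0.57 in the dTLec1-1 response, against -0.10 for psbH and -0.03 for petB further along, while petD was at -0.38. In the psaA unit psaA was at -0.44, psaB at -0.04 and rps14 at 0.19 in that response. psbK and psbI were at -0.03 and -0.58. The SE was 0.36 for psbB and 0.23 for psbT, against 0.11 for psbH and 0.09 for petB. These genes also differed in mean level over the 8 arrays. It was 8.60 for psbB, 8.67 for psbT and 6.33 for petD, against 11.95 for psbH and 13.69 for petB. For psaA, psaB and rps14 it was 10.77, 13.33 and 5.43, and for psbK and psbI 12.06 and 11.76. Probe sets near the top of an array's scale can be compressed, so these differences may not compare the transcripts. In the ribosomal protein unit, 7 of 7 measured genes (rps19, rpl22, rps3, rpl16, rpl14, rpl36 and rpoA) were negative in the dTLec1-1 response (median -0.28), and 6 of 7 were positive in wild type (median 0.14). Of all 69 plastid genes, 61 were negative in dTLec1-1 and 29 positive in wild type. The dTLec1-1 values of every unit include the high first control array. There rpl22 read 11.13, against 10.46 on the second control array and 10.61 and 10.42 in dTLec1-1 systemic leaves.

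**Figure D5:**
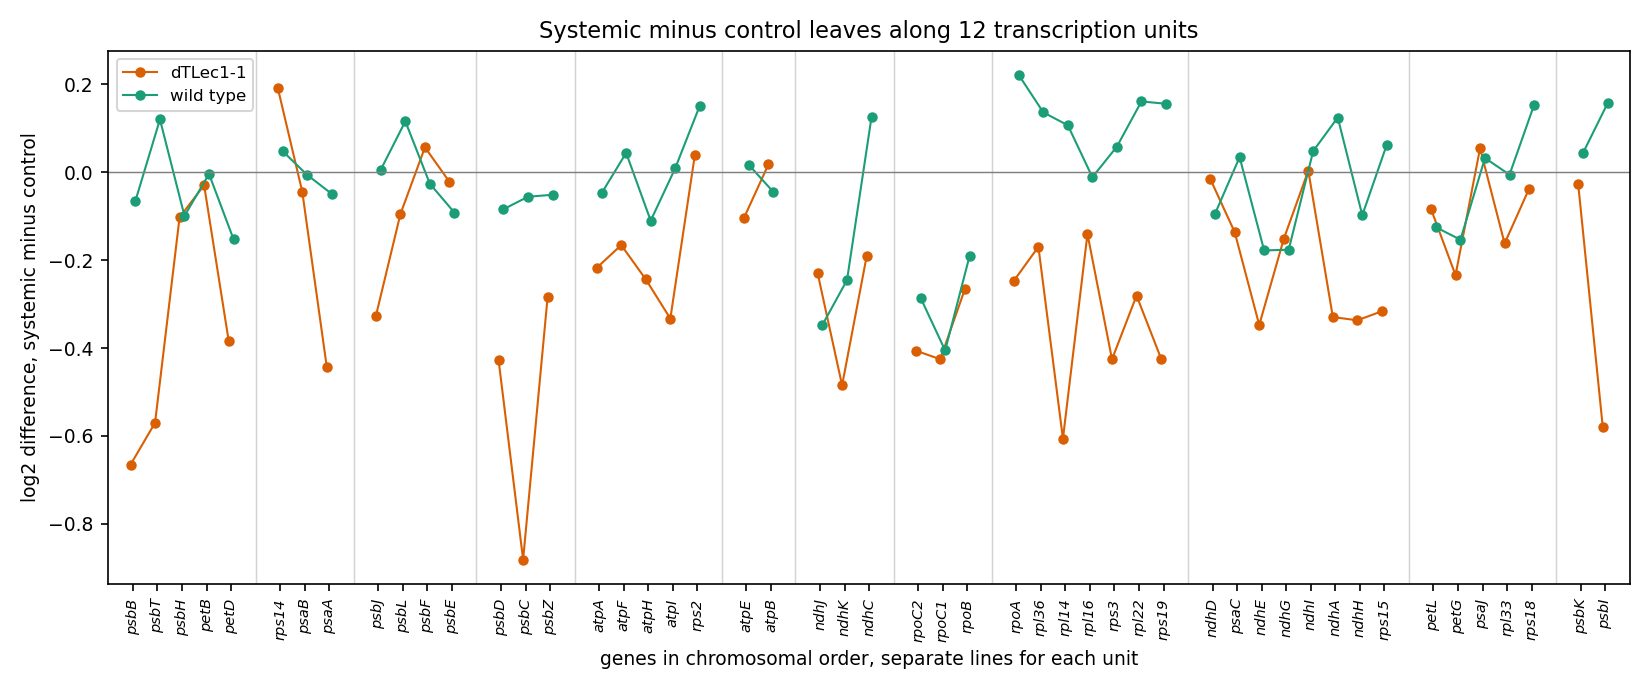
The horizontal axis gives the plastid genes of 12 transcription units in chromosomal order, the vertical axis the log2 difference of systemic minus control leaves, and the lines join the genes of a unit in dTLec1-1 (orange) and wild type (green). In dTLec1-1 the psbD, psbC and psbZ unit dips to -0.88 at psbC, and psbB and psbT lie below psbH and petB of the same unit.

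In the psbE unit the dTLec1-1 response lay between -0.33 for psbJ and 0.06 for psbF, and the wild-type response between -0.09 for psbE and 0.12 for psbL. atpB and atpE were at 0.02 and -0.10 in dTLec1-1 and at -0.04 and 0.02 in wild type. In the unit of rps2, atpI, atpH, atpF and atpA, 4 of 5 were negative in dTLec1-1 (median -0.22) and 2 of 5 in wild type (median 0.01). The ndhC, ndhK and ndhJ unit had medians of -0.23 in dTLec1-1 and -0.25 in wild type, although ndhC itself was at 0.13 in wild type. The unit of rps15, psaC and 6 ndh genes had medians of -0.23 in dTLec1-1 and -0.03 in wild type, and that of petL, petG, psaJ, rpl33 and rps18 had medians of -0.08 in dTLec1-1 and -0.01 in wild type.

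The plastid genes were also grouped by the polymerase that mainly transcribes them in textbook accounts. The 4 measured genes of the nucleus-encoded polymerase (rpoB, rpoC1, rpoC2 and accD) had a median of -0.34 in the dTLec1-1 response and -0.35 in the wild-type response, and 0 of 4 were called. The 11 listed genes of the plastid-encoded polymerase, among them psbA, psaA, psaB and rbcL, had a median of -0.27 in dTLec1-1 and -0.07 in wild type, where only rbcL was called. The medians of the 69 genes were -0.23 in dTLec1-1 and -0.02 in wild type. Without the high first dTLec1-1 control array, which enters every dTLec1-1 median here, the median of the 69 genes was -0.0015. In dTLec1-1 the genes of the nucleus-encoded polymerase spanned -0.43 to -0.02, and rpoB, rpoC1 and rpoC2 share a unit. These medians therefore do not decide whether the genes split by polymerase.

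Genes listed as nuclear partners of these complexes showed few calls. From lists of nuclear genes for these complexes and for RNA synthesis and maturation, 26 matched by symbol a probe set annotated to 1 gene. Whether each of the 14 genes listed under RNA maturation, CRR42 and HCF101 among them, takes part in it or acts on plastid RNA was not checked. By symbol, 0 NDH subunits, sigma factors, phage-type polymerases and plastid ribosomal proteins were matched, which does not show that the array lacks them. In the dTLec1-1 response, in the difference of responses and in the 3 comparisons of genotypes limma called 0 of 26. In wild type limma called 1 of 26, against 11.9% of all probe sets: CRR28, which takes part in the maturation of ndh transcripts, differed by -0.35 between systemic and control leaves, with an adjusted p of 0.0242, which was 0.0950 with the replicate number as a block. Over both genotypes limma called 4 of 26, against 14.1% of all probe sets, and 0 of these calls held with the block. The 4 were CRR28 (-0.27, adjusted p 0.0158, with the block 0.0646), CRR21 (-0.52, adjusted p 0.0349, with the block 0.0587), CRR42 (-0.62, adjusted p 0.0476, with the block 0.0707) and ATPC2, a gamma subunit gene of the ATP synthase (-0.26, adjusted p 0.0339, with the block 0.0988). Mean levels over the 8 arrays were 5.09 for CRR28, 5.69 for CRR21, 7.79 for CRR42 and 4.89 for ATPC2. The array median was 5.82 to 5.86, so all but CRR42 were dim. The median difference of the 26 genes was -0.08 in dTLec1-1 and -0.07 in wild type.

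The genes outside the plastid whose values were most like the median of the 69 over the 8 arrays were AT3G27200 (r = 0.98), AT2G43630 (r = 0.96) and AT5G18800 (r = 0.96), of 13444 probe sets with 1 gene compared. These r describe 8 arrays that share their normalization, and AT2G43630 and AT5G18800 varied by only 0.40 and 0.26 over them.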

How the data were processed

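Total RNA, 10 µg per sample, was labelled and hybridised to 8 Affymetrix ATH1 arrays, per the labels' protocols. The deposited table holds log2 expression values per probe set, made by the authors; the submitters' processing notes name RMA and Partek, without versions or settings, and the log2 scale was read from the values. The means over the first and over the second replicates were equal in the deposited values for all 22746 probe sets (largest difference 7.5e-05), so a mean difference between the replicate numbers was removed before deposit. Such a step leaves the group differences but lowers the spread between replicates.

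Gene names came from GEO's platform annotation and a TAIR10.1 gene table, which served for names and gene order only. Array controls (64 probe sets) were left out. Arrays have no read depth, and their number limits the precision.

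Each comparison was a contrast in 1 fit of all 8 arrays with limma 3.58.1 (R 4.3.3; lmFit and eBayes, 1 mean per group, two-sided, 4 residual and 3.12 prior degrees of freedom), with Benjamini-Hochberg adjustment over 22746 probe sets and a threshold of 0.05. The steps were tested on simulated data. Alternatives were the replicate number as a block, median centring, cyclic loess, leaving out the dimmest 25% of probe sets, a mean-variance trend and leaving out each array. The labels do not say that a replicate number pairs samples, and the main fit has no block. The differences of replicate 2 minus 1 correlated between groups at -0.58 to -0.13; since they sum to 0 for each probe set, negative values follow, and they do not show whether the numbers pair samples.

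The plastid genes, the lists of complexes, transcription units, nuclear partners and markers, and the tests were chosen with earlier results of these data known. Genes are named where they are psbA, rbcL or the highest in mean of a complex; where they were called or had the 5 smallest p in a comparison; where they had the highest or lowest mean effect of genotype or leaf type in a complex; where they belong to a listed transcription unit; or where they were the 3 genes most correlated with the plastid median. Genes named for their values on single arrays, and psbM and psbJ in systemic leaves, were added after their values were seen.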

Additional observations from a re-analysis of the deposited data

Results flagged for a closer look

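The psbI response differed in direction between the genotypes, with both systemic arrays below both control arrays in dTLec1-1 and above them in wild type. The difference of the responses was -0.74 (log2), with an adjusted p of 0.289 by limma.

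The cemA difference between genotypes differed in direction between the leaf types, with both dTLec1-1 arrays below both wild-type arrays in systemic leaves and above them in control leaves. The difference of these differences was -0.44 (log2), with an adjusted p of 0.326 by limma.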

How the results depend on the processing

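Of the counts of called plastid genes and their medians under each alternative, 205 stayed within the limits set for a change and 13 did not. With the replicate number as a block, the count for systemic minus control over both genotypes was 0 in place of 1, since rbcL had an adjusted p of 0.0549; the block changed no other call of a plastid gene, ended the calls of nuclear partners (1 in wild type, 4 over both genotypes), and rbcL in wild type had an adjusted p of 0.0491. With a block within each genotype, added after the data were seen, the count was 2 in wild type (rbcL, and accD with an adjusted p of 0.0485) and 3 over both genotypes (rbcL, rpoC1 and ndhK). Leaving out each array in turn gave 0 to 1 calls in the wild-type response, 0 to 2 over both genotypes, 0 to 1 between genotypes in systemic leaves, and 0 to 0 in the 4 other comparisons. In the mean of both genotypes petD (adjusted p 0.0434) joined rbcL without the first dTLec1-1 systemic array, and psbC was called in place of rbcL without the second dTLec1-1 control array. The medians ranged from -0.42 to -0.0015 in the dTLec1-1 response, -0.22 to 0.13 in wild type, -0.38 to -0.0008 in the difference of responses, -0.17 to 0.25 between genotypes in control leaves, -0.22 to 0.04 in systemic leaves, -0.23 to -0.03 for leaf type and -0.11 to 0.08 for genotype over both. Under median centring and cyclic loess, signs changed only for genes with differences of at most 0.0442; cyclic loess gave 54 negative and 15 positive genes in the dTLec1-1 response, against 61 and 8. The cause of these shifts was not tested. Over all probe sets the block left 1596 calls in the wild-type response, against 2716 without it, and 16 against 152 in dTLec1-1. The number of arrays limits the precision.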
